A study of Mus musculus with 43 samples.

Results

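The 10 core circadian clock genes described here are Arntl, Clock, Npas2, Cry1, Nfil3, Per1, Per2, Nr1d1, Nr1d2 and Dbp. They were taken by gene symbol from 2 tables of mouse liver RNA, where all 10 were found among 14622 genes of the hemizygous table and 13741 genes of the homozygous table (15056 genes in either). All 10 passed the filter on low values in both tables.

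The study sequenced livers of 36 male mice of 4 to 5 months, on a mixed C57BL6/J x FVBN background, as 43 libraries in 10 groups. It asked how insulin signalling in the liver alters gene expression in the PiZ mouse, which carries the human Z variant of alpha-1-antitrypsin, a secreted protease inhibitor whose Z form accumulates in hepatocytes. The hemizygous table held 3 WT mice, 4 mice lacking the insulin receptor in the liver (LIRKO), 5 mice with 1 copy of the transgene (Z) and 4 mice with both changes (Z LIRKO). It also held 5 further transgenic mice labelled Z*, written Zstar here, and 5 mice lacking the insulin receptor and FOXO1 in addition to carrying the transgene (Z LIRKO F1KO). The homozygous table held the same 3 WT and 4 LIRKO mice, 3 mice with 2 copies of the transgene (ZZ) and 7 ZZ LIRKO mice. The source name label differed between the Zstar and Z LIRKO F1KO mice and the other mice of the hemizygous table. No source used here names the promoter that drives the transgene, the Cre line behind the knockouts or the alleles of the WT mice. The time of day at which livers were collected is not given in the sources used here, and its part in the values below was not tested.

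The circadian clock of a liver cell is a feedback loop of transcription. ARNTL, also called BMAL1, pairs with CLOCK or its paralog NPAS2 and activates genes through E-box sequences, among them the Per and Cry genes, whose proteins return to the nucleus and repress that pair. The nuclear receptors NR1D1 and NR1D2, also called REV-ERB alpha and beta, are induced by the same E-boxes and repress Arntl, while DBP activates and NFIL3 represses genes through D-box sequences. In mouse liver, RNAs of Arntl, Clock, Npas2, Cry1 and Nfil3 peak in one part of the day and those of Per1, Per2, Nr1d1, Nr1d2 and Dbp in another, and Per1 is also induced by glucocorticoid hormone.

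Promoter sequences are shown for the 5 members whose promoter held a searched motif, because these letters are the known contact points of the loop. RefSeq on GRCm38.p6 had 13 promoter entries for 9 of the members (none for Per2), each of 300 bases, from 250 before to 50 after an annotated start. Letters CACGTG (E-box), CACGTT (a noncanonical E-box), TTANGTAA (D-box) and TAGGTCA (core of the ROR and REV-ERB element) were searched on both strands. Each sequence reads 5′ to 3′ on the strand of its gene, and capitals mark the match, which may lie on the other strand.
Per1, chr11:69098733-69098838, plus strand: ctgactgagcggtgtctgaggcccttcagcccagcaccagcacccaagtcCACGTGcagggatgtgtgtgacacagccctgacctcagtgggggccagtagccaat
Cry1, chr10:85185059-85185183, minus strand: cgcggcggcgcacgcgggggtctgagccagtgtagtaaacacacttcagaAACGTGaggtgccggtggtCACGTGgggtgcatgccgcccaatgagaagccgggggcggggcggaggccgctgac
Nr1d1, chr11:98775378-98775455, minus strand: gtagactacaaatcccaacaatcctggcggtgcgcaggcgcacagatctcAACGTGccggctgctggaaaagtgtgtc
Arntl, chr7:113207529-113207558, plus strand: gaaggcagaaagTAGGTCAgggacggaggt
Nfil3, chr13:52981040-52981101, minus strand: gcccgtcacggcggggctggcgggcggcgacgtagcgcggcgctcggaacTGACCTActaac

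The canonical E-box stood 166 bases before a start of Per1 and 60 bases before that of Cry1. Among all 32851 promoter entries, 7.15% held it, 4.68% the noncanonical E-box, 2.32% the D-box and 2.61% the ROR and REV-ERB core. Counted by gene, over 27025 genes, these shares were 8.09%, 5.44%, 2.72% and 2.97%. The Arntl match lay 30 bases after the start in 1 of its entries and that of Nfil3 lay 12 bases before the start. No member promoter held the D-box letters in this window. A match describes the letters and does not show a used site.

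Libraries held about 13834400 to 23938300 reads in the hemizygous table and 38177800 to 90093000 reads in the homozygous table. Insr, the insulin receptor gene, stood at 5.08 to 6.10 log2 CPM (the normalised read count, on a log2 scale) in the LIRKO, Z LIRKO and Z LIRKO F1KO libraries of the hemizygous table and at 6.57 to 7.26 in the other libraries there. In the homozygous table it stood at 5.44 to 5.93 with the knockout and at 6.40 to 7.14 without it. Foxo1 stood at 2.61 to 2.98 in Z LIRKO F1KO and at 5.00 to 6.39 in the other groups of that table. Hepatocyte markers were high in every group, with all 6 found and a summed level of 15.7 to 17.1 log2 CPM. Prss2, an exocrine pancreas gene, was above 0 log2 CPM in 8 libraries of the hemizygous table and 3 of the homozygous table, WT mice 1586 and 1601 among them in both. In bulk liver, fewer cells of a type and less RNA per cell cannot be told apart.

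The 10 members were divided by the part of the day in which their RNA peaks, as given above, into sides called earlier and later. These names are labels, and no order in time is meant. The difference between the mean of the later members (Per1, Per2, Nr1d1, Nr1d2 and Dbp) and the mean of the earlier ones (Arntl, Clock, Npas2, Cry1 and Nfil3) was taken in each library, as a description with no test. In the hemizygous table it was -0.08 ± 1.04 log2 units in the 3 WT livers (SD), where mice 1564, 1586 and 1601 stood at -1.12, -0.09 and 0.97. LIRKO stood at 3.04 ± 0.85 (SD, n = 4), Z LIRKO at 3.28 ± 0.43 (SD, n = 4), Z LIRKO F1KO at 3.15 ± 0.66 (SD, n = 5) and Zstar at 3.03 ± 0.84 (SD, n = 5). Z had a wide spread, 2.55 ± 1.32 (SD, n = 5), from 0.57 in mouse 1410 to 3.64 in mouse 1443. In that table, only Z mouse 1410 lay within the range of the WT mice. The same difference in the homozygous table was -0.07 ± 1.24 for the 3 WT, 0.29 ± 1.27 for the 3 ZZ and 3.21 ± 0.87 for the 4 LIRKO livers (SD). ZZ LIRKO covered both ends, with 1.59 ± 1.71 (SD, n = 7) and values from -1.25 in mouse 1876 to 3.54 in mouse 1855, so it overlapped every other group of that table.

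**Figure D1:**
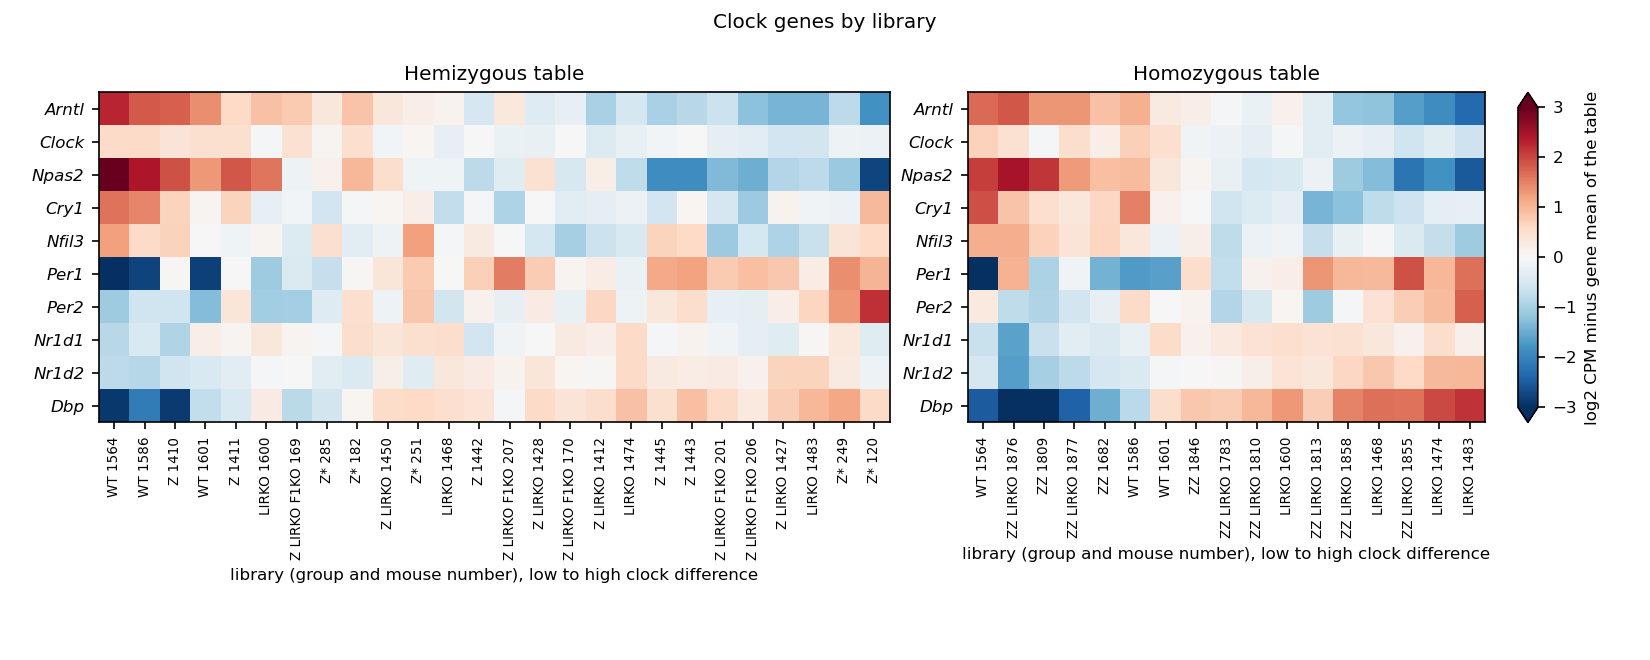
Each column is 1 library, named by group and mouse number and ordered within its table by the difference between later and earlier members, and colour gives log2 CPM minus the mean of the gene over the table (limited to 3 log2 units either way). This ordering by itself sets the 5 upper rows against the 5 lower rows, so their opposite turn is no separate result. Within groups of the hemizygous table, Nr1d1 did not run against Arntl (r = 0.10). ZZ LIRKO mouse 1876 stands at the WT end of the homozygous table.

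Activators of the loop were lower in LIRKO than in WT livers. Arntl stood at 4.97, 4.54 and 4.09 log2 CPM in WT mice 1564, 1586 and 1601 of the hemizygous table and at 2.79, 2.16, 1.31 and 3.56 in LIRKO mice 1468, 1474, 1483 and 1600. Every LIRKO mouse lay under every WT mouse. The change was -2.08 ± 0.65 log2 units (SE), 4.23-fold lower (limma adjusted p = 0.0214). Clock, the partner of ARNTL, fell by 0.82 log2 units (SE 0.18, adjusted p = 0.00197) from 6.65 ± 0.05 log2 CPM (SD, n = 3), without overlap of the groups. Npas2, the paralog of Clock, stood at 3.80, 2.79 and 1.68 log2 CPM in WT and at 0.25, -0.38, -0.41 and 1.97 in LIRKO. LIRKO mouse 1600 overlapped the lowest WT mouse, and the change of -2.40 ± 0.88 (SE) lay at the threshold (adjusted p = 0.0496).

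Among the repressors, Per1 and Cry1 went in opposite directions. Per1 stood at 1.69, 2.97 and 2.94 log2 CPM in WT mice 1564, 1586 and 1601 and at 5.76, 5.55, 5.96 and 4.68 in LIRKO mice 1468, 1474, 1483 and 1600. All LIRKO mice lay above all WT mice, a rise of 2.96 ± 0.46 (SE), 7.76-fold (adjusted p = 5.29e-05). Cry1 stood at 4.56, 4.37 and 3.0 log2 CPM in WT and at 2.18 to 2.81 in LIRKO and fell by 1.38 log2 units (SE 0.35, adjusted p = 0.00556). Per2 stood at 3.61 to 4.31 log2 CPM in the WT mice and at 3.87 to 5.54 in the LIRKO mice, with a difference of 0.71 (95% confidence interval -0.13 to 1.56, adjusted p = 0.217) that did not pass. The E-box shown above in the Per1 and Cry1 promoters is shared by genes that moved apart here.

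The REV-ERB receptor genes and the D-box factors moved as well. Nr1d2 rose by 1.09 ± 0.21 (SE, adjusted p = 4.21e-04), from 5.77 ± 0.22 log2 CPM (SD, n = 3) to 6.86 ± 0.32 (SD, n = 4), and the groups did not overlap. Nr1d1 rose by 0.72 ± 0.25 (SE, adjusted p = 0.0399) with overlap. Dbp stood at 2.40, 3.20 and 4.57 log2 CPM in WT mice 1564, 1586 and 1601 and at 5.81, 6.18, 6.30 and 5.55 in the LIRKO mice, 5.92-fold higher (2.57 ± 0.60, adjusted p = 0.00293). Nfil3, which opposes DBP at the same sequences, fell by 0.88 log2 units (SE 0.31, adjusted p = 0.0425). In all, 4 members rose, 5 fell and 1 did not pass, while 23.7% of all genes tested passed in this comparison, 11.8% higher and 12% lower. The groups did not overlap for 6 of the 10 members and for 36.4% of all genes. The median size of change was 1.24 log2 units over the members and 0.29 over all genes.

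With any 1 library left out, the calls of Per1, Clock, Dbp and Nr1d2 held. Without WT mouse 1564 only those 4 passed, and Cry1 then stood at -1.09 (adjusted p = 0.0508, with 4.75e-04 to 0.0569 over its alternatives), Nfil3 at -0.57. Without WT mouse 1586 or LIRKO mouse 1474 there were 5 calls and without LIRKO mouse 1468 or 1483 there were 6. Without LIRKO mouse 1600 there were 8, with Nr1d1 lost. Hepatocyte markers summed to 16.79 to 17.05 log2 CPM in WT and 15.68 to 16.34 in LIRKO. Exocrine pancreas markers, of which 9 of 10 were found, summed to 4.78 to 10.12 log2 CPM in WT and 2.62 to 2.93 in LIRKO, and the part of either list in these changes was not tested. Without the libraries above 0 log2 CPM of Prss2, which leaves WT mouse 1564 alone, Per1 stood at 3.80 and Dbp at 3.55. Arntl then stood at -2.52, Clock at -0.84 and Npas2 at -3.44. That mouse had the highest Arntl and Npas2 and the lowest Per1 and Dbp of the WT and LIRKO mice. These sizes therefore depend on which WT mouse remained and do not show that the calls held. They do not test the part of the pancreas genes either. With plain library totals as scaling Nfil3 (-0.80, adjusted p = 0.0848) and Npas2 (-2.32, adjusted p = 0.0616) did not pass, and Npas2 did not without the filter on low values (adjusted p = 0.0514).

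The same 7 mice were measured again in the homozygous table, as samples of their own. The sample titles do not say whether libraries were prepared anew. For 9 of 10 members the highest mouse was the same in both tables, and for 9 of 10 the lowest was. The SD of the difference between tables was below the SD among mice for all 10 members in both tables. For Per1 it was 0.19 log2 units against 1.68 and 1.79 among mice, and for Arntl 0.29 against 1.33 and 1.52. WT mouse 1564 was the highest for Arntl, Npas2, Cry1 and Nfil3 in each table and the lowest for Per1, Nr1d1 and Dbp. The order of the mice between these ends was not the same in both tables for every member, and the libraries are of the same animals, not of further ones.

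**Figure D2:**
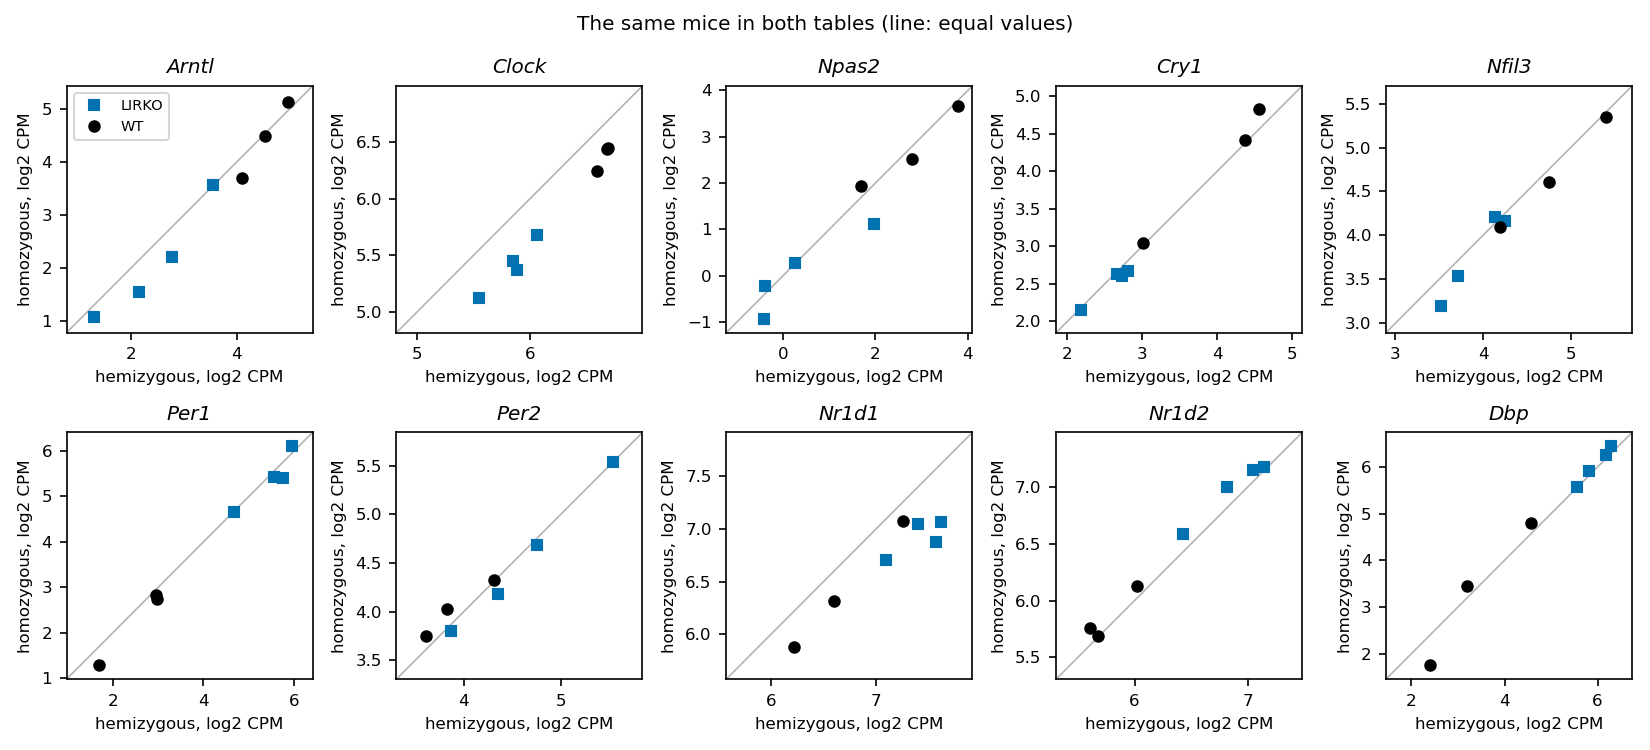
Each panel sets the log2 CPM of 1 member in the hemizygous table (horizontal axis) against that in the homozygous table (vertical axis) for the 3 WT and 4 LIRKO mice present in both, with a line of equal values. Points follow the line, with Clock and Nr1d1 lower in the homozygous table by 0.37 and 0.40 log2 units on average.

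Among the homozygous libraries, 1 member rose, 4 fell and 5 did not pass in LIRKO against WT, while 27.8% of all genes passed, 13.8% higher and 14% lower. Groups did not overlap for 7 members and for 39.6% of all genes. Per1 rose by 3.12 ± 0.59 (SE, adjusted p = 0.00121), and Arntl (-2.34 ± 0.72), Npas2 (-2.64 ± 0.85), Cry1 (-1.58 ± 0.47) and Clock (-0.97 ± 0.22) fell, with limma adjusted p of 0.0249, 0.0299, 0.0202 and 0.00417. Dbp differed by 2.71 ± 1.19 (SE) and Nr1d2 by 1.12 ± 0.43, and neither passed (adjusted p = 0.101 and 0.061). In a fit of WT and LIRKO alone they did (adjusted p = 0.0127 and 0.0024), a fit that leaves out the ZZ and ZZ LIRKO libraries. Calls of Arntl and Npas2 were lost without WT mouse 1564 or 1586 or LIRKO mouse 1474 or 1483, and that of Cry1 without WT mouse 1564 or 1586 or LIRKO mouse 1468. Without the Prss2 libraries, which again leaves WT mouse 1564 alone, Per1 stood at 4.13, Cry1 at -2.32, Arntl at -3.03, Npas2 at -3.60 and Clock at -1.03. That mouse had the highest Arntl, Npas2 and Cry1 and the lowest Per1 of the WT and LIRKO mice, so these sizes depend on it. The sizes do not show that the calls held.

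The transgene in 1 copy was compared with WT. Per1 stood at 5.79, 5.73, 6.47, 6.95 and 6.89 log2 CPM in Z mice 1410, 1411, 1442, 1443 and 1445, all above the highest WT mouse at 2.97. The rise was 3.83 ± 0.44 (SE, adjusted p = 6.06e-06, limma) and passed in all 16 alternatives, where it ranged from 2.99 to 4.82. Per2 stood at 4.32 to 5.43 log2 CPM, also above all WT mice, but its difference of 1.14 ± 0.39 did not pass (adjusted p = 0.0636). It passed in a fit of Z and WT alone (adjusted p = 0.0239) and with plain library totals (1.19, adjusted p = 0.0495). Nr1d2 rose by 0.67 ± 0.20 (adjusted p = 0.03), a call that ended without WT mouse 1564 or 1586 or Z mouse 1442, 1443 or 1445, with Zstar in place of Z (0.50, adjusted p = 0.0874), in a fit of Z and WT alone, and with the Arntl level of the library as a covariate.

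Arntl in Z spread over the whole span between WT and LIRKO. It stood at 4.48, 3.28, 2.19, 1.86 and 1.71 log2 CPM in Z mice 1410, 1411, 1442, 1443 and 1445, and mouse 1410 lay within the WT range. The difference from WT was -1.83 ± 0.62 (SE, adjusted p = 0.0582), those of Npas2 -2.53 ± 0.84 (adjusted p = 0.0546) and Dbp 1.60 ± 0.57 (adjusted p = 0.0739), and none passed. Without Z mouse 1410, 6 members passed, Arntl (-2.28), Npas2 (-3.04), Per2 (1.33) and Dbp (2.24) among them. Without Z mouse 1411 there were 3 and without WT mouse 1601 there were 4. With Zstar in place of Z, 6 passed as well, but Zstar differs from WT in the source name label too, and the label and the group cannot be told apart. As fitted, 2 members rose and 8 did not pass, against 10.4% of all genes (5.89% higher, 4.54% lower), and 3 did not overlap (Per1 and Per2 higher, Clock lower), against 17.3% of all genes.

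Per1 and Dbp were set against Arntl in the same livers. Z mouse 1410 and WT mouse 1586, a pair chosen after their values were seen, had Arntl at 4.48 and 4.54 log2 CPM. Their Dbp stood at 2.44 and 3.20, whereas their Per1 stood at 5.79 and 2.97. In a fit with the Arntl level of each library as a covariate, which was added after seeing the data, the Z and WT difference of Per1 was 2.99 ± 0.40 (SE, adjusted p = 1.60e-04) and that of Dbp 0.35 ± 0.46 (adjusted p = 0.778). In LIRKO against WT of the hemizygous table, Per1 in this fit stood at 2.00 ± 0.43 (adjusted p = 0.00273), Nr1d2 at 0.59 ± 0.17 (adjusted p = 0.0176), and the other members tested did not pass. Npas2 had the opposite sign there, 0.15 ± 0.49 (adjusted p = 0.879). Arntl itself changed in LIRKO and differed in Z by -1.83, which did not pass. In both comparisons, a covariate of this kind therefore also takes up part of the difference between groups, that of Dbp included.

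**Figure D3:**
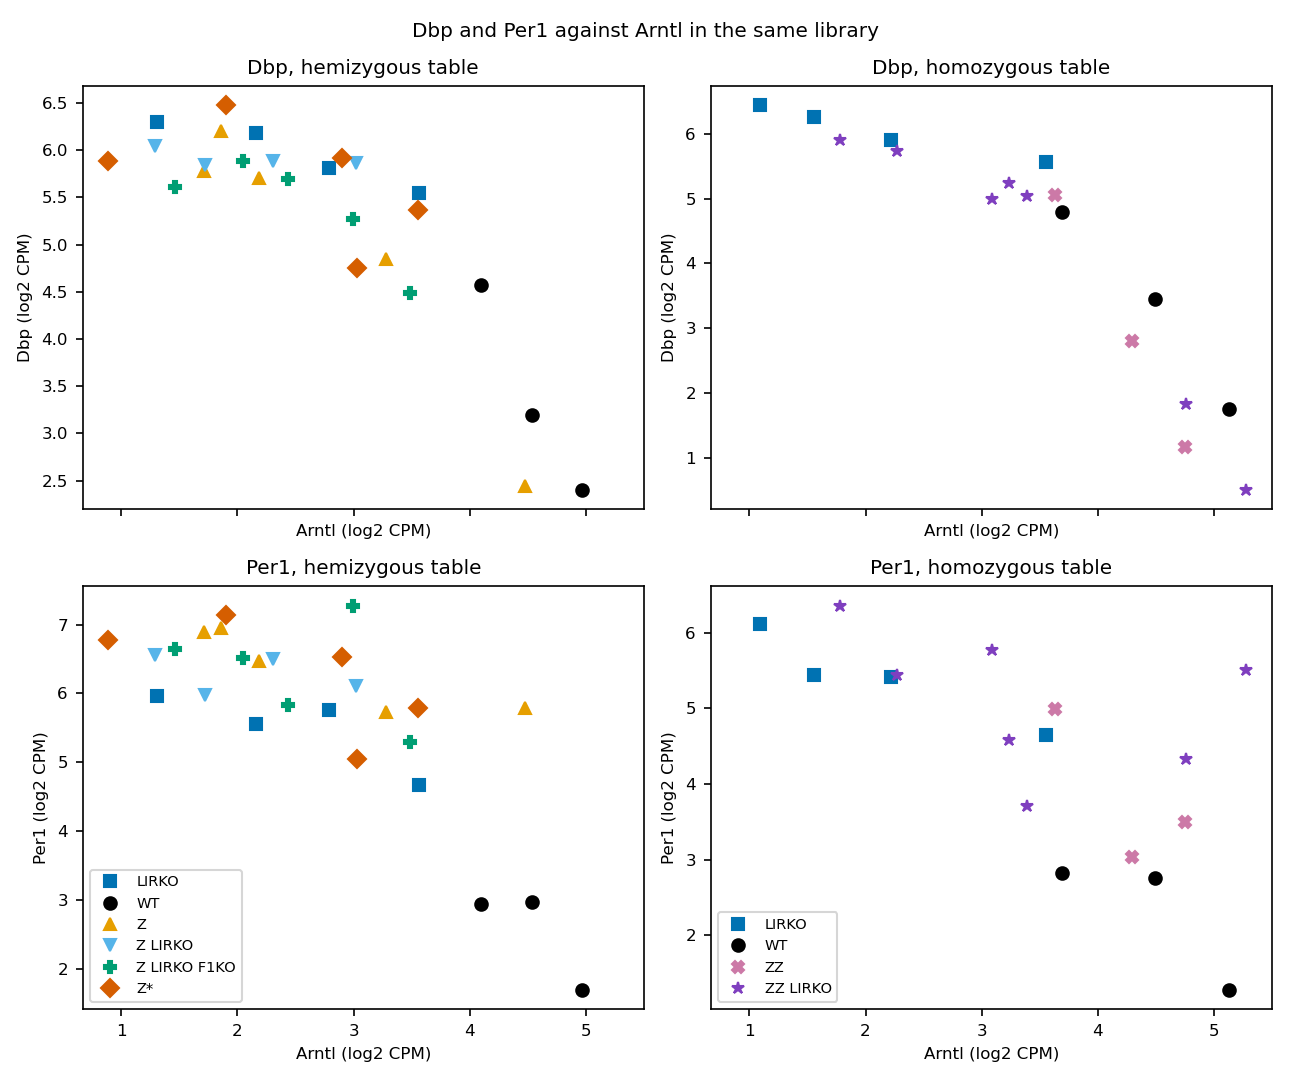
Dbp (upper panels) and Per1 (lower panels) are set against Arntl in the same library, in log2 CPM, with colour and shape for the group and 1 column of panels for each table. Dbp falls from left to right in both tables, whereas at high Arntl the Per1 of Z mouse 1410 (5.79) and of ZZ LIRKO mouse 1876 (5.50) lies above that of every WT mouse.

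Genes induced by glucocorticoid were counted beside Per1, from a list of 10, all tested. In Z against WT 4 rose and none fell, where 5.89% of all genes rose and 4.54% fell. Tsc22d3 (GILZ, an anti-inflammatory leucine zipper protein) rose by 2.62 ± 0.21 (SE, adjusted p = 2.14e-08), Tat (tyrosine aminotransferase) by 1.80 ± 0.30 (adjusted p = 3.76e-04), the kinase gene Sgk1 by 1.85 ± 0.32 (adjusted p = 5.44e-04) and Ddit4, an inhibitor of mTORC1, by 2.73 ± 0.76 (adjusted p = 0.0226). The summed level of the 10 was 9.94 to 10.997 log2 CPM in WT, 11.8 to 12.5 in Z and 11.2 to 11.6 in LIRKO. Tat, the highest of the 10, alone stood at 9.17 to 10.74, 11.55 to 12.03 and 10.86 to 11.22 in these groups. The sum thus largely follows Tat and is not a level of the whole list. In LIRKO against WT among the same libraries, 4 rose and 1 fell, where 11.8% of all genes rose and 12% fell. The 1 that fell was Fkbp5 (-1.65 ± 0.48, adjusted p = 0.0151), a gene encoding a chaperone of the glucocorticoid receptor. Sgk1 stood at 3.71 to 4.24 log2 CPM in WT and at 5.71 to 6.34 in LIRKO. Between Z LIRKO and Z, where Per1 differed by -0.08, 1 rose and 3 fell, with Tsc22d3 at -1.08 ± 0.19 and Fkbp5 at -1.41 ± 0.42 lower and Sgk1 at 0.98 ± 0.29 higher, while 16.7% of all genes rose and 17.7% fell. In ZZ against WT 3 rose and 1 fell where 30.3% of all genes passed, and in ZZ LIRKO against ZZ 2 rose and none fell where 26.8% did. The part of this list in the Per1 levels was not tested.

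**Figure D4:**
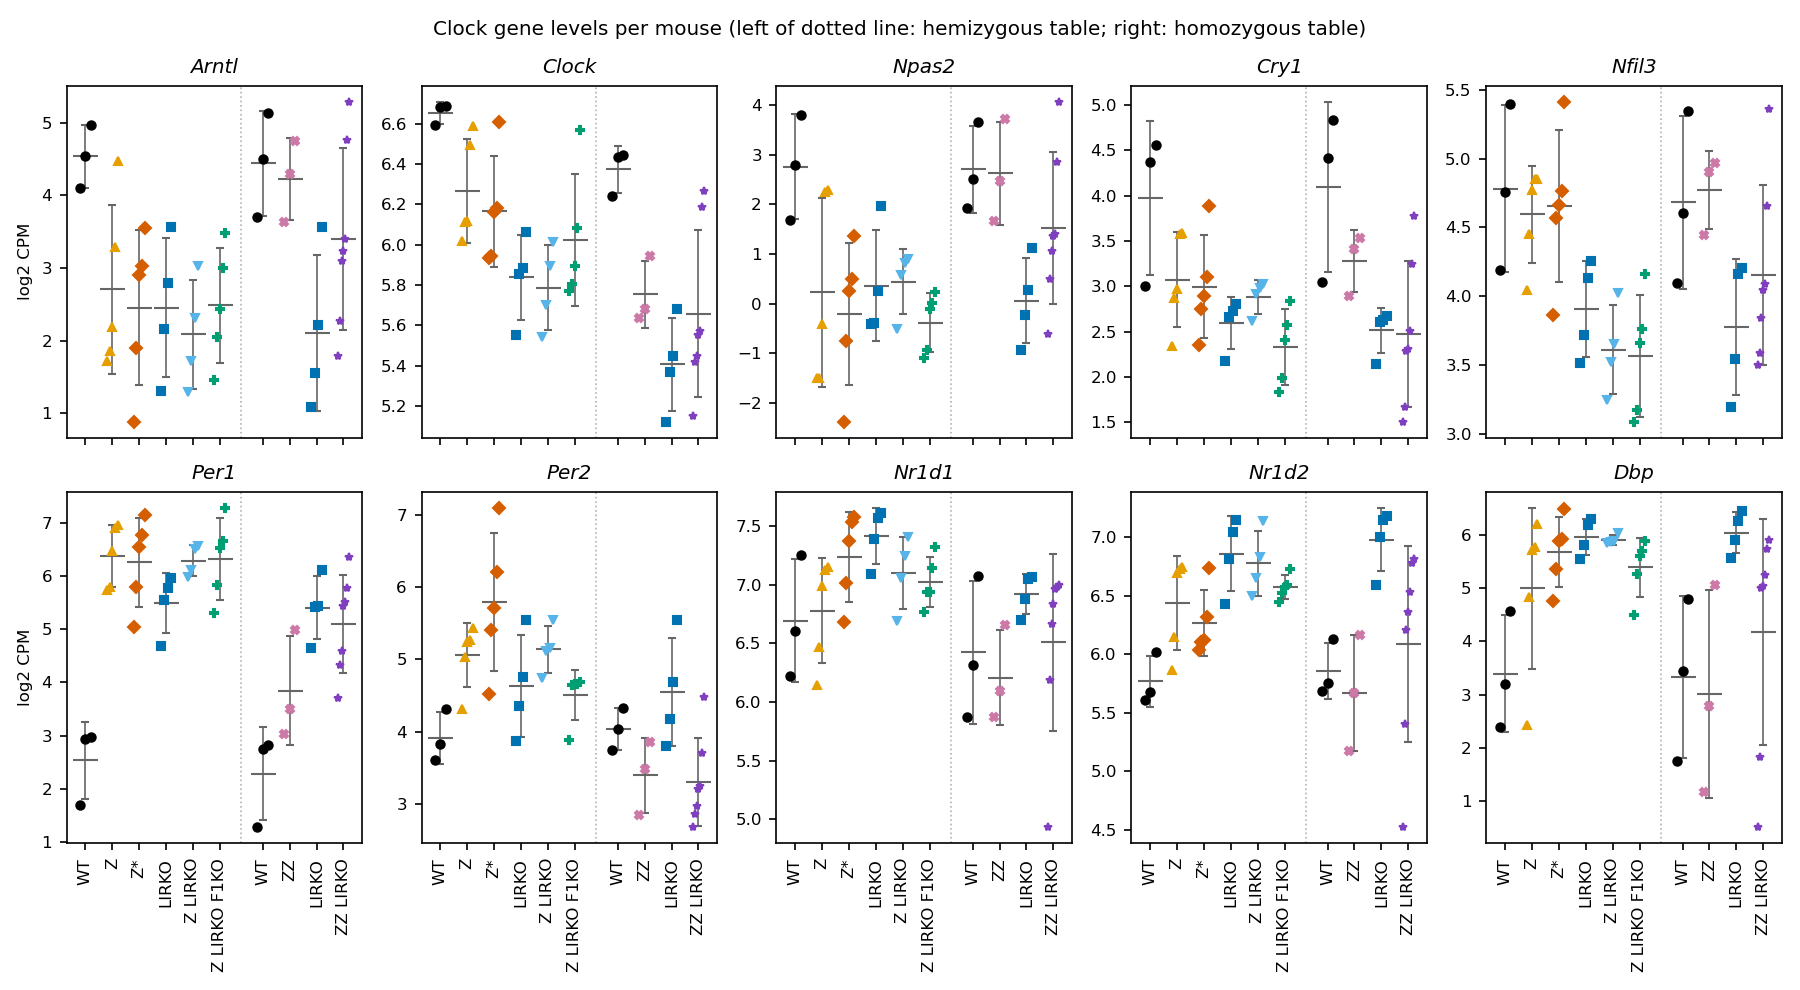
Each panel gives the log2 CPM of 1 member in every mouse by group, with the hemizygous table left and the homozygous table right of the dotted line, and the mean ± SD in grey. Per1 of WT stays under 3 log2 CPM in both tables, and Dbp has an SD of 1.51 in Z, 1.95 in ZZ and 2.12 in ZZ LIRKO.

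Loss of the insulin receptor on the Z background moved few members. Nfil3 stood at 4.85, 4.04, 4.45, 4.78 and 4.85 log2 CPM in Z mice 1410, 1411, 1442, 1443 and 1445 and at 3.52, 3.24, 3.66 and 4.02 in Z LIRKO mice 1412, 1427, 1428 and 1450, all lower. It fell by 0.98 log2 units (SE 0.27, adjusted p = 0.00763, limma), a call that held in 16 of 17 alternatives and was lost without the Prss2 libraries (-0.76, adjusted p = 0.112, with 0.00331 to 0.112 over all of them). Clock fell by 0.48 (SE 0.16, adjusted p = 0.0228), but not without Z mouse 1410 or 1411 or Z LIRKO mouse 1412 or 1427, nor with plain library totals as scaling (-0.40, adjusted p = 0.0591), with Zstar in place of Z (-0.38) or without the Prss2 libraries (-0.35), with adjusted p of 0.0108 to 0.247 over all alternatives. Macrophage markers, with 5 of 5 found, summed to 8.47 to 8.91 log2 CPM in Z and 9.30 to 9.48 in Z LIRKO, and their part was not tested. Per1 differed by -0.08 (95% confidence interval -0.92 to 0.75) and Arntl by -0.62 (-1.79 to 0.55), and neither passed. In all, 2 members fell and 8 did not pass, against 34.3% of all genes (16.7% higher, 17.7% lower), and the same 2 did not overlap, against 25.9% of all genes.

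Per1 rose by 2.96 log2 units with receptor loss in WT and differed by -0.08 with receptor loss in Z. The difference between these changes was -3.04 ± 0.61 (SE, adjusted p = 0.0349), past the threshold with 0.199% of all genes. The call was lost in 15 of 24 alternatives, where the difference ranged from -4.27 to -2.37 (adjusted p = 0.00853 to 0.135). It ended with voom weights, with the Arntl covariate, and without any 1 of WT mice 1564, 1586 and 1601, LIRKO mice 1468, 1474 and 1483, Z mice 1442, 1443 and 1445, or Z LIRKO mice 1412, 1427, 1428 and 1450. Between Z LIRKO and LIRKO, limma called no member, nor did voom weights, none had an unadjusted p under 0.05, and 1.1% of all genes passed. Per1 there was 5.97 to 6.55 log2 CPM in Z LIRKO, above LIRKO at 4.68 to 5.96, with a difference of 0.79 ± 0.43 (adjusted p = 0.379), and 11.7% of all genes did not overlap.

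Mice that lacked FOXO1 as well were compared with Zstar mice, which share their source name label. Nfil3 stood at 4.77, 3.87, 4.57, 5.41 and 4.66 log2 CPM in Zstar mice 120, 182, 249, 251 and 285 and at 3.76, 3.17, 3.09, 3.66 and 4.16 in Z LIRKO F1KO mice 169, 170, 201, 206 and 207. The groups overlapped through Zstar mouse 182, and Nfil3 fell by 1.09 log2 units (SE 0.26, adjusted p = 0.00351), a call that held in all 17 alternatives. Per2 stood at 7.09, 5.41, 6.21, 5.71 and 4.52 in these Zstar mice and at 3.89, 4.68, 4.66, 4.64 and 4.65 in the F1KO mice, with Zstar mouse 285 inside the range of the latter. It fell by 1.28 (SE 0.34, adjusted p = 0.00791), and not without the Prss2 libraries (-1.27, adjusted p = 0.0779). Macrophage markers summed to 8.18 to 8.39 log2 CPM in Zstar and 9.12 to 9.87 in Z LIRKO F1KO, and their part was not tested. So 2 members fell and 8 did not pass, against 23.5% of all genes (12.4% higher, 11.1% lower), and none was free of overlap, against 13.5% of all genes. Nr1d2 passed as a rise with plain library totals (0.52, adjusted p = 0.0169), which shift the median of all genes by 0.22. It also passed with the Arntl covariate (0.31, adjusted p = 0.049). Per1, at 5.04 to 7.14 in Zstar and 5.30 to 7.28 with the 3 changes, differed by 0.06 (95% confidence interval -0.73 to 0.85).

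The fall of Nfil3 with receptor and FOXO1 loss was set against that with receptor loss alone. The difference was -0.10 (95% confidence interval -0.88 to 0.67, adjusted p = 0.905), and it did not pass. For Per2 it was -1.36 ± 0.50 (adjusted p = 0.0986). No member passed (limma and voom weights), 1 had an unadjusted p under 0.05, and 6.63% of all genes passed. Without Zstar mouse 285 Per2 passed (-1.68, adjusted p = 0.0245). This contrast crosses the source name labels, and label and group cannot be told apart. Zstar against Z, which crosses them too, gave no called member (2 at an unadjusted p under 0.05, Nr1d1 0.46 and Per2 0.73, and 0 with voom weights), against 9.47% of all genes, and Per2 passed there without Zstar mouse 285 (1.05).

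**Figure D5:**
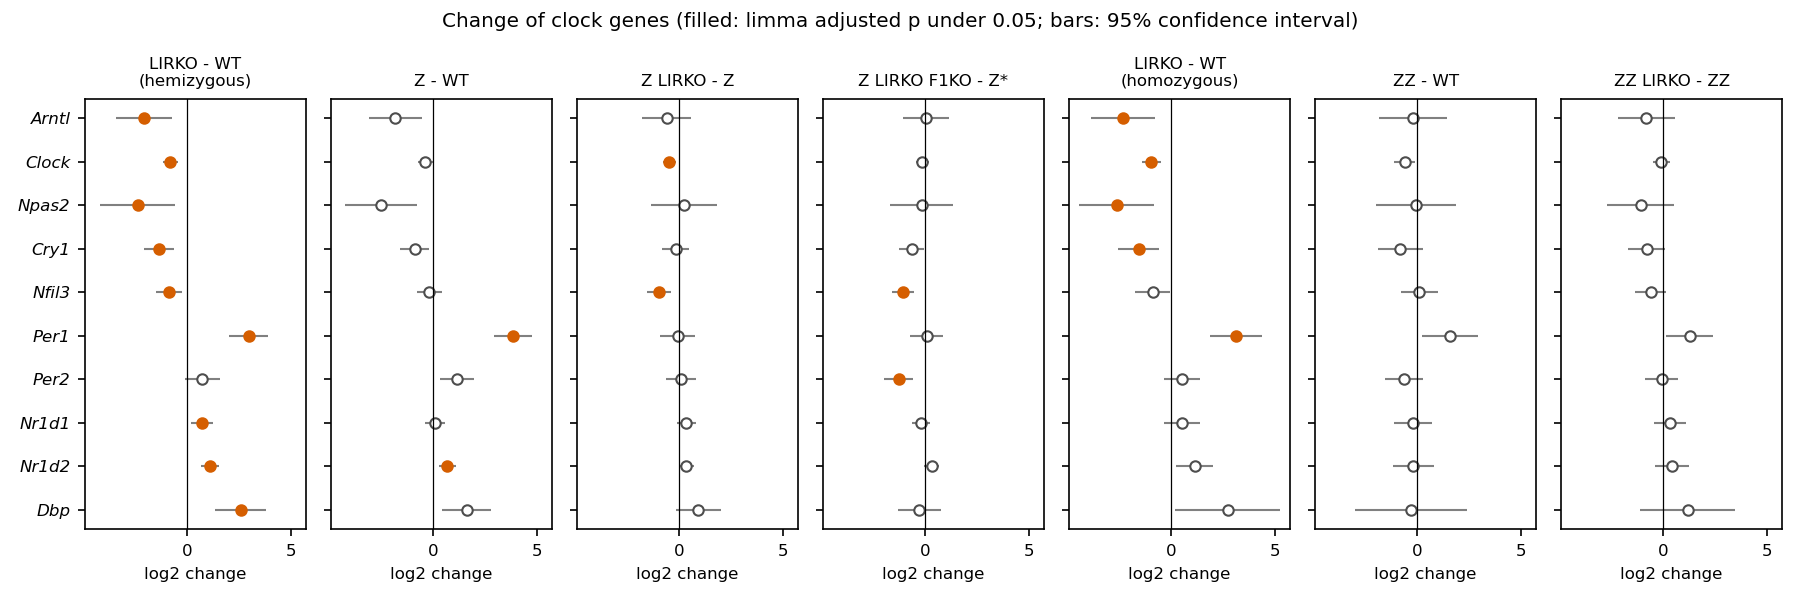
Each panel gives the log2 change of the 10 members in 1 comparison with its 95% confidence interval, filled where the limma adjusted p was under 0.05. Per1 lies furthest to the right in LIRKO and Z against WT (2.96 and 3.83), and the intervals of Arntl, Npas2 and Dbp are wider than those of Clock in every panel.

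With 2 copies of the transgene, no member passed against WT. Arntl stood at 4.30, 4.75 and 3.63 log2 CPM in ZZ mice 1682, 1809 and 1846 and at 5.13, 4.49 and 3.70 in WT mice 1564, 1586 and 1601 of the homozygous table, with a difference of -0.21 (95% confidence interval -1.85 to 1.42). Per1 stood at 3.03, 3.50 and 4.99 in ZZ and at 1.28, 2.75 and 2.82 in WT, without overlap, but the difference of 1.56 ± 0.64 did not pass (adjusted p = 0.0742, limma). It passed with scaling by plain totals (1.83, adjusted p = 0.0305), which shifts the median of all genes by 0.27, and with the Arntl covariate (1.46, adjusted p = 0.0497). Clock, at 5.94, 5.68 and 5.64 in ZZ and 6.44, 6.44 and 6.24 in WT, did not overlap either (-0.62 ± 0.23, adjusted p = 0.0552) and passed in a fit of both groups alone (adjusted p = 0.01) and with the Arntl covariate (-0.56, adjusted p = 0.00269). No member was called by limma or with voom weights, 2 had an unadjusted p under 0.05, and 30.3% of all genes passed, while 45% of all genes and these 2 members did not overlap.

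Members in ZZ LIRKO had their lowest, median and highest values far apart. Arntl stood at 1.78, 3.23 and 5.28 log2 CPM, Dbp at 0.51, 5.03 and 5.90, and Per1 at 3.71, 5.44 and 6.36. Mice 1876 and 1877 held the 2 highest Arntl values (5.28 and 4.76) and the 2 lowest Dbp values (0.51 and 1.83) of their group. Per1 of mouse 1876 (5.50) lay above the group median, whereas that of mouse 1877 (4.33) lay above only that of mouse 1783 (3.71). No member was called against ZZ by limma or voom weights (1 at an unadjusted p under 0.05, and 26.8% of all genes passed). Per1 was nearest (1.26 ± 0.54, adjusted p = 0.093) and passed without ZZ mouse 1846 (1.84) or ZZ LIRKO mouse 1783 (1.49). Against LIRKO, Per2 fell by 1.25 (SE 0.34, adjusted p = 0.0253), from 3.80 to 5.54 in LIRKO to 2.67 to 4.47 in ZZ LIRKO, with overlap, as the 1 member called where 10.6% of all genes passed (6.83% higher, 3.73% lower). No member was free of overlap there, against 9.42% of all genes, nor against ZZ, where 23% of all genes were. That call ended without LIRKO mouse 1468, 1474 or 1483 or ZZ LIRKO mouse 1813, and with the Arntl covariate (-0.76). The effect of receptor loss did not differ in a called way between ZZ and WT for any member by limma or with voom weights (2 at an unadjusted p under 0.05, Per1 and Clock, and 7.75% of all genes passed), and Clock passed without ZZ LIRKO mouse 1855 (0.96).

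Within groups, members varied together. Deviations from the group mean were correlated with those of Arntl, each table apart, with 9 pairs in each and p-values from 100000 permutations within groups, adjusted over the 9. These libraries share the scaling of their table. In the hemizygous table (n = 26) Npas2 followed Arntl with Pearson r = 0.91 and Spearman rho = 0.93, and Clock with r = 0.84 and rho = 0.88 (permutation p = 1e-05 for each, the smallest these permutations can give, adjusted p = 4.5e-05). Nr1d2 (r = -0.77, rho = -0.80), Per2 (r = -0.76, rho = -0.70), Dbp (r = -0.74, rho = -0.76) and Per1 (r = -0.64, rho = -0.68) ran against it, with permutation p of 2.7e-04, 7e-05, 6e-05 and 0.00195 for r. The adjusted p were 4.86e-04, 1.58e-04, 1.58e-04 and 0.00293 for r, and those for rho 2.02e-04, 0.00103, 2.02e-04 and 0.00194. Cry1 (r = 0.18, rho = 0.18), Nfil3 (r = 0.24, rho = 0.28) and Nr1d1 (r = 0.10, rho = 0.16) did not pass (permutation p = 0.426, 0.27 and 0.668, adjusted p = 0.479, 0.347 and 0.668).

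Without the 2 libraries farthest from the median of Arntl, r in the order Npas2, Clock, Nr1d2, Per2, Dbp and Per1 was 0.85, 0.87, -0.77, -0.63, -0.69 and -0.62, and all 6 passed. Within the source name label of WT, LIRKO, Z and Z LIRKO (n = 16) it was 0.89, 0.90, -0.87, -0.76, -0.80 and -0.75, and within that of Zstar and Z LIRKO F1KO (n = 10) it was 0.95, 0.80, -0.60, -0.79, -0.66 and -0.55, as descriptions with no p. The 3 that did not pass had different signs by label, with Cry1 at 0.46 and -0.24, Nfil3 at 0.46 and -0.01, and Nr1d1 at -0.20 and 0.66.

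In the homozygous table (n = 17) all 9 pairs passed. Npas2 (r = 0.96, rho = 0.95), Clock (r = 0.88, rho = 0.85), Nfil3 (r = 0.80, rho = 0.80) and Cry1 (r = 0.69, rho = 0.67) went with Arntl, with adjusted permutation p of 3e-05, 5.4e-04, 0.00175 and 0.00779. Nr1d2 (r = -0.90, rho = -0.93), Dbp (r = -0.86, rho = -0.89), Nr1d1 (r = -0.67, rho = -0.69), Per2 (r = -0.66, rho = -0.63) and Per1 (r = -0.56, rho = -0.63) went against it, with adjusted permutation p of 3e-05, 3e-05, 0.00779, 0.0167 and 0.0351. Without the 2 libraries farthest from the median of Arntl, Per2 no longer passed (r = -0.59, adjusted permutation p = 0.0583, n = 15), and the other 8 passed with r of the same sign. The 7 WT and LIRKO mice are in both tables, so the tables are not independent. Over all pairs of members, 10 of 10 earlier pairs and 10 of 10 later pairs had a positive r in the homozygous table and 24 of 25 mixed pairs a negative one. Among the hemizygous libraries these were 9 of 10, 9 of 10 and 20 of 25.

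The share of the sum of squares that lay within groups ranged from 19.1% for Per1 in the hemizygous table to 82.5% for Nr1d1 in the homozygous table. For Arntl it was 58.2% and 54.8%, for Dbp 49.1% and 66.5%, and for Per1 of the homozygous libraries it was 31.0%. A smaller share thus lay within groups for Per1 than for Arntl in both tables. A gene with no group difference would also hold most of its sum of squares within groups, so these shares compare members only.

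Outside the 10 members, the genes most like Arntl, Dbp and Per1 were ranked among 9631 genes by the correlation of deviations from group means over the 26 libraries of the hemizygous table, as a description. Nearest to Arntl were St5 (r = 0.93, and 0.95 over the 17 libraries of the homozygous table), Cldn1, a tight junction gene (0.91 and 0.65), Asap2 (0.89 and 0.92), Ypel2 (0.86 and 0.68) and Dtx4 (0.85 and 0.78). Nearest to Dbp were Per3 (0.93 and 0.97), the E-box repressor gene Bhlhe41 (0.91 and 0.94), Tef, a D-box factor gene related to Dbp (0.91 and 0.94), the glucose transporter gene Slc2a2 (0.88 and 0.37) and Wee1, a cell cycle kinase gene (0.87 and 0.87). Nearest to Per1 were Slc5a6, a vitamin transporter gene (0.87 and 0.72), Baiap2l1 (0.85 and 0.42), Ndel1 (0.85 and 0.44), the phosphate transporter gene Slc20a1 (0.83 and 0.33) and Rhob (0.83 and 0.46). The genes were picked for their r in the hemizygous table, so the values of the homozygous table are given beside them without comparison.

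Of 20 other clock genes, 19 were tested, and Rorb was not found. In LIRKO against WT among the hemizygous libraries, 9 rose, 1 fell and 9 did not pass, with Csnk1e, whose kinase phosphorylates PER proteins (0.82 ± 0.17), Per3 (2.21 ± 0.49), the E-box repressor gene Bhlhe40 (1.50 ± 0.36) and Tef (1.22 ± 0.30) at the smallest p (limma adjusted p = 0.00102 to 0.00407). Among the homozygous libraries, 6 rose and 1, Timeless, a gene of DNA replication and of the clock (-0.75 ± 0.15, adjusted p = 0.00204), fell. In Z against WT 5 rose and 2 fell. Timeless fell by 1.55 (SE 0.21, adjusted p = 5.70e-05), Usp2, a clock-controlled deubiquitinase gene, rose by 3.07 ± 0.65 (adjusted p = 0.00322), Fbxl21, for an F-box protein that binds CRY, fell by 0.76 (SE 0.20, adjusted p = 0.017) and Per3 rose by 1.61 ± 0.47 (adjusted p = 0.0277).

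Between Z LIRKO and Z, 2 of these 19 rose and 1 fell, with Timeless at 1.08 ± 0.19 and Csnk1e at 0.50 ± 0.15 higher and Hlf, a further D-box factor gene, at -0.52 ± 0.20 (limma adjusted p = 1.77e-04, 0.0114 and 0.0448). Between Z LIRKO F1KO and Zstar 2 rose and 3 fell. Hlf fell by 0.67 (SE 0.19, limma adjusted p = 0.0116), and Timeless (0.99 ± 0.18) and Csnk1e (0.70 ± 0.14) rose. In ZZ against WT Csnk1e rose (0.93 ± 0.11, adjusted p = 2.22e-05) and Timeless (-0.88 ± 0.16), Hlf (-0.86 ± 0.20) and Sirt1, a deacetylase gene (-0.42 ± 0.15), fell. The shares of all genes that passed in these comparisons are those given above.

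Sequence overlap bears on 3 members, since the strand rule of the read counting is not given. In the GENCODE M21 annotation, Dbp shared 539 of its 2993 exonic bases (18.0%) with Sphk2 on the opposite strand, Nr1d1 shared 263 of 3077 (8.55%) with Thra, and Arntl shared 33 with Gm45355. How reads from those stretches were counted is therefore not known.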

How the data were processed

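Liver RNA of 36 mice gave 43 libraries. The deposited values are log2 CPM, named moderated in the labels. STAR (2.0.4b), Subread and featureCounts (1.4.5) and build GRCm38 were used, per the submitters' processing notes. Their settings, the strand rule and the annotation are not stated in these sources. All deposited values (100%) equalled whole reads plus 0.5, within 0.01 reads, over a scaled library size (0.875 to 1.14 times the read sum in the hemizygous table, 0.900 to 1.18 in the homozygous table).

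Repeated lines were dropped (115 and 55), and 21 and 20 symbols turned into dates were restored by identifier. Among the hemizygous columns, 1 matched no label and was not used. Tests took genes that reached 0 log2 CPM in 3 or more libraries, 13596 and 13690. In limma (3.58.1, R 4.3.3) all groups of a table shared a fit of group means with trended variances, and two-sided p-values were adjusted over every gene tested (Benjamini-Hochberg, threshold 0.05). Every adjusted p of a gene is from this test unless another is named. It was tested on simulated data. Tables were scaled separately and never fitted together. Values include 0.5 added reads, so changes of low genes are understated. Groups, mouse numbers and source names came from the labels.

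All 10 members were named. Of the other clock and glucocorticoid lists up to 4 genes with the smallest p per comparison were named, and of similar genes 5 per member, with a mean of at least 2 log2 CPM. The rule also took 1 gene of the lists that is not reported here. Members and lists were chosen with earlier results of these data known, so they are no independent evidence. Alternatives were a fit of the compared groups alone, no filter, log2(CPM + 1), plain library totals, voom weights, Zstar in place of Z, each library left out and the libraries above 0 log2 CPM of Prss2 left out. The Arntl covariate was added after seeing the data. Libraries of a group are separate mice by their numbers, and read depth limits precision by counting error only.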

Additional observations from a re-analysis of the deposited data

Results flagged for a closer look

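In 77 groups of values with 4 to 10 mice, the highest or lowest mouse was compared with the gap expected in a single group, and chance marks about 1 in 20 such groups. A far mouse was found in 3. Cry1 of LIRKO mouse 1468 in the homozygous table stood at 2.15 log2 CPM, with the nearest mouse at 2.61. Per2 of Z LIRKO F1KO mouse 169 stood at 3.89, with the nearest at 4.64. Nr1d1 of ZZ LIRKO mouse 1876 stood at 4.93, with the nearest at 6.19.

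The change of Per1 with receptor loss differed between the Z and WT backgrounds by -3.04 ± 0.61 log2 units (SE, limma adjusted p = 0.0349), by a test of that difference. The call was lost in 15 of 24 alternatives, with voom weights (adjusted p = 0.129), with the Arntl covariate, and without any 1 of 13 libraries (adjusted p = 0.00853 to 0.135 over all 24).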

How the results depend on the processing

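Per1 passed in every alternative in Z against WT and in LIRKO against WT of both tables, as did Nr1d2 in LIRKO against WT of the hemizygous table and Nfil3 in Z LIRKO F1KO against Zstar. Of the called values of members, 1 changed sign, Npas2 in LIRKO against WT of the hemizygous table with the Arntl covariate (0.15). With that covariate, values that had not passed changed sign too in LIRKO against WT, those of Dbp (-0.61), Nr1d1 (-0.37), Nr1d2 (-0.12), Per2 (-0.35) and Nfil3 (0.11) in the homozygous table and of Per2 (-0.29) in the hemizygous table. Counts of members called moved as follows, and the cause was not tested. In Z against WT the 2 became 6 with Zstar, 4 with log2(CPM + 1) or voom weights and 1 with the Arntl covariate. With that covariate LIRKO against WT gave 2 and 1 in the hemizygous and homozygous tables, ZZ LIRKO against LIRKO 0, ZZ against WT 2 and the Z by receptor difference 0, as it was with voom weights (0). Without the Prss2 libraries LIRKO against WT gave 2 in the homozygous table, Z LIRKO against Z 0, Z LIRKO F1KO against Zstar 1, ZZ LIRKO against ZZ 1 and the Z by receptor difference 2. Plain totals gave 1 in Z LIRKO against Z and 1 in ZZ against WT, and a fit of the compared groups alone 1 in ZZ against WT. With 1 library left out, the ranges were 1 to 6 in Z against WT, 4 to 9 and 2 to 5 in LIRKO against WT of the hemizygous and homozygous tables, 1 to 2 in Z LIRKO against Z, 2 to 3 in Z LIRKO F1KO against Zstar, 0 to 0 in Z LIRKO against LIRKO and in ZZ against WT, and 0 to 1 in each other comparison.

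Correlations with Arntl in the homozygous table no longer passed without the Prss2 libraries for Cry1 (0.67), Nr1d1 (-0.62) and Per1 (-0.50), and for Per2 (-0.59) without the 2 farthest libraries. Plain totals shifted the median of all genes by 0.22 in Z LIRKO F1KO against Zstar, 0.13 in its difference from Z LIRKO against Z, 0.27 in ZZ against WT, -0.18 in ZZ LIRKO against ZZ and -0.26 in the ZZ by receptor difference. Counts over all genes moved by over 1.5 times in Z against WT from 1418 to 942 with the groups alone, 563 without the Prss2 libraries, 2181 with Zstar and 365 with the covariate. The Z by receptor difference went from 27 to 9 with voom weights, 523 with Zstar and 0 with the covariate. In LIRKO against WT 3229 became 1373 without the Prss2 libraries and 2096 with the covariate in the hemizygous table, and 3803 became 1601 and 2342 in the homozygous table. Without the Prss2 libraries 149 became 72 in Z LIRKO against LIRKO (250 with the groups alone), 3196 became 1683 in Z LIRKO F1KO against Zstar, 901 became 363 in its difference from Z LIRKO against Z, 4149 became 1964 in ZZ against WT, and 1061 became 340 in the ZZ by receptor difference (2313 with plain totals, 647 with the covariate). Zstar against Z went from 1288 to 715 with the groups alone.

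Without the Prss2 libraries WT is mouse 1564 alone, whose spread is assumed to equal that of the rest. No paired analysis was possible because mouse numbers are shared only by the same mice in both tables, which are not fitted together. A difference between members of 1 library has no scaling alternative.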
